A study of Homo sapiens with 6 samples.

Results

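SRF and 9 contractile genes of the smooth-muscle type (ACTA2, TAGLN, CNN1, CNN2, MYL9, MYLK, TPM1, TPM2 and CALD1) were examined in the transcriptome of U87-MG cells. The 10 genes were taken by name from a table of 61731 genes and loci, each matched to 1 Ensembl identifier, and all 10 passed the limit on low values. U87-MG is an established human glioblastoma (GBM) cell line. The study asked which genes change when CHRM3, the M3 muscarinic acetylcholine receptor, is knocked down, and 6 libraries of total RNA were sequenced in read pairs. The group U87_NC (3 libraries) has the genotype label normal control, and the group U87_KD (3 libraries) has the genotype label CHRM knockdown. No drug, dose or time is given for either group. According to the methods, the knockdown was made with a lentivirus, and neither the sequence used for these libraries nor separate cultures for the 3 libraries of a group are stated, so the p-values measure the spread between these libraries, which may be technical. It is also not stated whether the numbers 1 to 3 of U87_KD mark repeats of 1 knockdown or different knockdown sequences, so the SD of U87_KD may hold either kind of spread.

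Serum response factor (SRF) is a transcription factor that binds a DNA element called the CArG box. It works with partner proteins. The myocardin-related factors MRTFA and MRTFB are held back by free actin monomers and direct SRF to genes of the cytoskeleton and contraction, while the ternary complex factors ELK1, ELK3 and ELK4 respond to ERK and direct SRF to immediate early genes. The contractile genes encode smooth-muscle actin, the light chain and kinase of the myosin motor, and proteins that coat or crosslink actin filaments. Outside smooth muscle they are known in myofibroblasts and in other spread, adherent cells.

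The values are TPM, a share of each library that takes transcript length into account, so that levels of different genes can be compared. Such shares do not keep the number of reads, so the depth is unknown and no counting error is given. CHRM3 (ENSG00000133019) was listed at 0.02, 0.09 and 0.13 TPM in U87_NC 1, 2 and 3 and at 0.13, 0.01 and 0.02 TPM in the libraries labelled U87_KD 1, 2 and 3. The groups overlapped (exact two-sided permutation test, p = 0.80). These values are near the floor of TPM rounded to 2 decimals, and with 3 against 3 that test cannot give less than 0.10. A reduction of the targeted gene could therefore not be detected here, whether present or not. The paper reports that its knockdown of CHRM3 was efficient in U87-MG cells. "Higher" and "lower" refer to the libraries by their U87_KD label. VIM, CD44, FN1 and NES, chosen as markers of mesenchymal glioblastoma, summed to between 8079 and 8587 TPM per library. Most of this was VIM, with means of 6574 TPM in U87_NC and 7376 TPM in U87_KD. NES was low, with means of 2.25 and 3.58 TPM. The glial markers GFAP, OLIG2, SOX2 and S100B summed to at most 2.26 TPM. VIM, CD44, FN1 and NES differed between the groups in both directions, each past the test used for the members. Their log2 fold changes were 0.17 for VIM, 0.50 for NES, -0.33 for CD44 and -0.57 for FN1. Of 6 markers of mature smooth muscle, MYH11, LMOD1, DES and MYOCD averaged under 1 TPM, ACTG2 averaged 2.42 and 2.26 TPM in U87_NC and U87_KD, and SMTN averaged 100.2 and 76.4 TPM. The 5 leukocyte markers summed to between 0.94 and 1.35 TPM in U87_NC and between 0.48 and 0.73 TPM in U87_KD. The 4 endothelial markers summed to between 3.37 and 3.58 TPM in U87_NC and between 1.43 and 1.51 TPM in U87_KD, nearly all of it KDR, which was lower past the test (log2 fold change -0.86). The part of these markers in the results was not tested.

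In the libraries labelled U87_KD, 8 of the 10 genes rose and CNN2 fell slightly, while CNN1 did not pass the test. TAGLN, which encodes an actin-binding protein, was at 3.21 times its mean TPM in U87_NC and ACTA2, which encodes smooth-muscle actin, at 2.75 times. On the log2 scale ACTA2 had the larger change of the pair with a pseudocount of 1 and TAGLN with a pseudocount of 0.1 (1.62 against 1.46). MYL9 was at 1.81 times, MYLK at 1.49 times and CALD1 at 1.48 times their control means. TPM2, SRF and TPM1 rose by far less, and TPM1 failed the test in 9 of 16 other fits. The test was limma on log2(TPM + 1) over the 13722 genes that averaged 1 TPM or more, with Benjamini-Hochberg adjusted p under 0.05. By that rule 36.1% of all tested genes passed, 12.1% as higher and 24% as lower. The members' split of 8 higher and 1 lower was 8 and 0 after median-of-ratios scaling and 4 and 4 when TPM was taken relative to GAPDH. The share of all tested genes is given here and below only for TPM as deposited. Relative to GAPDH the median log2 fold change of all tested genes was -0.52. GAPDH itself, a glycolytic enzyme often used as a reference, rose from 7777 ± 78 to 11095 ± 103 TPM (SD, n = 3 each). Under a further limit of 1 on the absolute log2 fold change, ACTA2 and TAGLN were called, both as higher, against 1.87% of all tested genes and 0.67% as higher. Relative to GAPDH neither passed that limit (ACTA2 0.94, TAGLN 0.83), and a limit of 5 TPM on low values removed TAGLN. The values of the groups did not overlap for 9 of the 10 genes and for 50.2% of all tested genes. The median log2 fold change of the 10 genes was 0.42, and that of all tested genes was -0.06. The median of the 10 genes was -0.09 relative to GAPDH, and that of the 9 genes left by the limit of 5 TPM was 0.27.

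**Figure D1:**
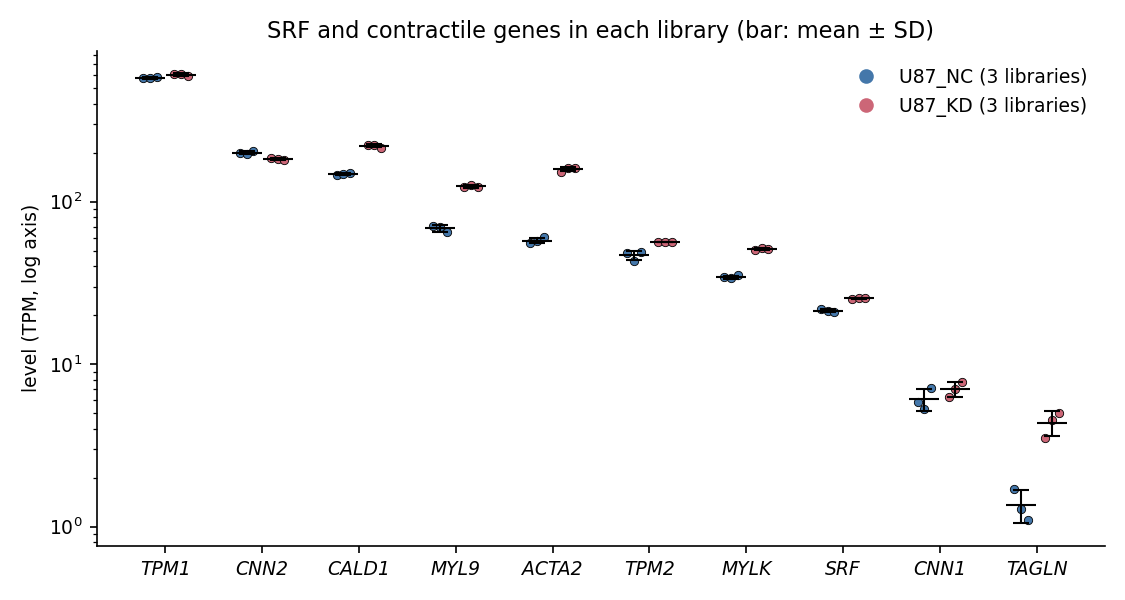
TPM (log axis) of SRF and the 9 contractile genes in each of the 3 U87_NC and 3 U87_KD libraries, ordered by the U87_NC mean, with bars for mean and SD. The U87_KD points lie above the U87_NC points for 8 genes, below them for CNN2, and among them for CNN1.

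SRF (ENSG00000112658, chromosome 6 from 43171299 to 43181507 on GRCh38, plus strand) was at 21.7, 21.3 and 20.8 TPM in U87_NC 1 to 3. It was at 25.1, 25.4 and 25.6 TPM in U87_KD. All U87_KD libraries were above all U87_NC libraries, which held for 17.4% of the tested genes. On the log2 scale the change was 0.24 (standard error, SE, 0.0352, adjusted p = 0.0026 by limma), and it was -0.25 relative to GAPDH.

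The CArG box, which has 6 A or T bases between CC and GG and is its own reverse complement, was searched in RefSeq promoter windows (GRCh38.p14, 250 bases before to 50 bases after each annotated start). Windows were found for 8 of the 10 genes (14 windows in all). TAGLN and MYL9 had no window and were not searched. Of the 35116 windows in the table, 1.29% held at least 1 CArG box. Among the 14 windows of the members, 3 did (21.4%), 1 each of SRF, CNN2 and MYLK, and that of SRF held 2 boxes. With 1 G or C among the 6 inner bases, a form found in 6.94% of all windows, 2 of the 14 had matches (14.3%). These were 1 window of ACTA2 and 1 of CALD1. The CALD1 match lies within chr7:134711369-134711498, which is before the annotated gene span. The sequences of SRF, ACTA2 and CNN2 are shown because these genes carry such letters while their changes differ in size and direction. Each is the 130 bases before an annotated start, 5′ to 3′, and the capitals mark the CArG boxes of SRF and CNN2 and the elements with 1 G or C in ACTA2. The SRF window is chr6:43171139-43171268 (plus strand), that of ACTA2 is chr10:88952774-88952903 (minus strand, a start inside the annotated gene span), and that of CNN2 is chr19:1026478-1026607 (plus strand).
SRF: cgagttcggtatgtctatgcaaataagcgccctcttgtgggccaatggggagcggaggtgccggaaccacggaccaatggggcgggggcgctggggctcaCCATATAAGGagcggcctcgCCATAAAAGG
ACTA2: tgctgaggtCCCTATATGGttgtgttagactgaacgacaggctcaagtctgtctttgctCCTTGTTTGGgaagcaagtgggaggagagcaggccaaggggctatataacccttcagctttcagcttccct
CNN2: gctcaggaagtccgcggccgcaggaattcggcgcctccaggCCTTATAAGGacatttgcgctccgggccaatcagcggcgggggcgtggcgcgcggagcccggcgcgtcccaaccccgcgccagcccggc
In SRF, CCATATAAGG begins 30 bases and CCATAAAAGG 10 bases before the start. In ACTA2, CCCTATATGG begins 121 bases and CCTTGTTTGG 71 bases before the start. In CNN2, CCTTATAAGG begins 89 bases before the start. The MYLK element, CCTTTTATGG, lies in a window inside the gene that is annotated as exon. These matches describe letters only. SRF, CNN2 and MYLK, the genes with exact boxes, had log2 fold changes of 0.24, -0.13 and 0.56. A link between the boxes and the changes was not tested.

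ACTA2 (ENSG00000107796, chromosome 10 from 88935074 to 88991339, minus strand) was at 55.7, 56.9 and 60.3 TPM in U87_NC. It reached 153, 161 and 160.2 TPM in U87_KD. The groups were far apart. The log2 change was 1.44 (SE 0.0381, 95% interval 1.35 to 1.53, adjusted p = 3.8e-06 by limma), and 68 of the tested genes had a larger one. It was 0.94 relative to GAPDH, still past the test. Actin genes have near-identical coding sequences, so reads could be split between them. FAS, which encodes a death receptor, was named outside the rule because it overlaps ACTA2 on the opposite strand with shared exon positions. It moved the other way, from between 28.5 and 30.2 TPM to between 19.1 and 20.1 TPM. The strand used in the counting is not stated. Exon positions are also shared with expressed opposite-strand genes by TAGLN (PCSK7), CNN2 (AC011558.1), MYLK (MYLK-AS1) and TPM1 (AC079328.2).

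TAGLN (ENSG00000149591, chromosome 11 from 117199321 to 117204782, plus strand) encodes transgelin, or SM22, an actin-binding protein of smooth muscle. It was scarce, at 1.70, 1.29 and 1.09 TPM in U87_NC and 3.53, 4.53 and 5.03 TPM in U87_KD. The groups did not overlap, although TAGLN varied most within groups of all 10 genes, with a coefficient of variation of 22.9% in U87_NC and 17.5% in U87_KD. On the log2 scale it was higher by 1.18 (SE 0.153, adjusted p = 0.00166 by limma), and it was 1.62 with a pseudocount of 0.1.

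MYL9 (ENSG00000101335, chromosome 20 from 36541484 to 36551447, plus strand) encodes a regulatory light chain whose phosphorylation switches on the myosin motor. It was at 70.6, 70.3 and 64.9 TPM in U87_NC and at 123, 126 and 123 TPM in U87_KD. The groups were well separated, and the log2 change was 0.85 (SE 0.0383, adjusted p = 2.63e-05 by limma), which was 0.34 relative to GAPDH.
MYLK (ENSG00000065534, chromosome 3 from 123610049 to 123884331, minus strand) encodes the kinase that phosphorylates this light chain. It was at 34.1, 33.7 and 35.1 TPM in U87_NC and at 50.5, 51.9 and 51.2 TPM in U87_KD. Every U87_KD library was above every control, and the log2 change was 0.56 (SE 0.0310, adjusted p = 5.85e-05 by limma), which was 0.06 and did not pass relative to GAPDH (adjusted p = 0.0724 by limma).
CALD1 (ENSG00000122786, chromosome 7 from 134744252 to 134970728, plus strand) encodes caldesmon, which binds actin and myosin and inhibits their interaction. It was at 147, 149 and 149.6 TPM in U87_NC and at 222, 224 and 215 TPM in U87_KD. The log2 fold change of 0.57 (SE 0.0234, adjusted p = 1.96e-05 by limma) was close to that of MYLK, and the 95% intervals of both overlapped (0.51 to 0.62 and 0.49 to 0.64). Relative to GAPDH the change of CALD1 was 0.06 (adjusted p = 0.0442 by limma). The table gives 1 value per gene, so the long and short forms of MYLK, CALD1 and the tropomyosins were not separated.

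The calponins, which bind actin filaments and restrain the myosin motor, did not pass the test as higher. CNN1 (ENSG00000130176, chromosome 19 from 11538717 to 11550323, plus strand), the form typical of smooth muscle, was at 5.83, 5.27 and 7.08 TPM in U87_NC and 6.29, 7.06 and 7.81 TPM in U87_KD. The groups overlapped, and the estimated log2 change of 0.19 had a 95% interval of -0.09 to 0.48 (adjusted p = 0.248 by limma), so a rise of moderate size is within the interval.
CNN2 (ENSG00000064666, chromosome 19 from 1026581 to 1039068, plus strand), a form found in many cell types, was at 200.1, 197 and 205 TPM in U87_NC and 185, 184 and 181 TPM in U87_KD. All U87_KD libraries were below all controls, as for 32.8% of tested genes, and the log2 change was -0.13 (SE 0.0231, adjusted p = 0.00627 by limma). After median-of-ratios scaling it was -0.06 and no longer passed (adjusted p = 0.0822 by limma).

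The tropomyosins run along actin filaments and control access of myosin. TPM1 (ENSG00000140416, chromosome 15 from 63042632 to 63071915, plus strand), the most abundant of the 10 genes, was at 574, 576 and 585 TPM in U87_NC and 614, 609.6 and 592 TPM in U87_KD. The groups did not overlap, but the log2 fold change was 0.07 (adjusted p = 0.0425 by limma). It failed the test in 9 of 16 other fits, including 5 of the 6 that left out 1 library, where the log2 fold change ranged from 0.05 to 0.08, and it was -0.45 relative to GAPDH. The exception was the fit without U87_KD 3.
TPM2 (ENSG00000198467, chromosome 9 from 35681992 to 35690121, minus strand) was at 48.1, 43.3 and 48.9 TPM in U87_NC and 56.5, 56.7 and 56.6 TPM in U87_KD. The U87_KD libraries were higher and almost equal to each other, and the log2 change was 0.27 (SE 0.0492, adjusted p = 0.00646 by limma), which was -0.23 relative to GAPDH.

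**Figure D2:**
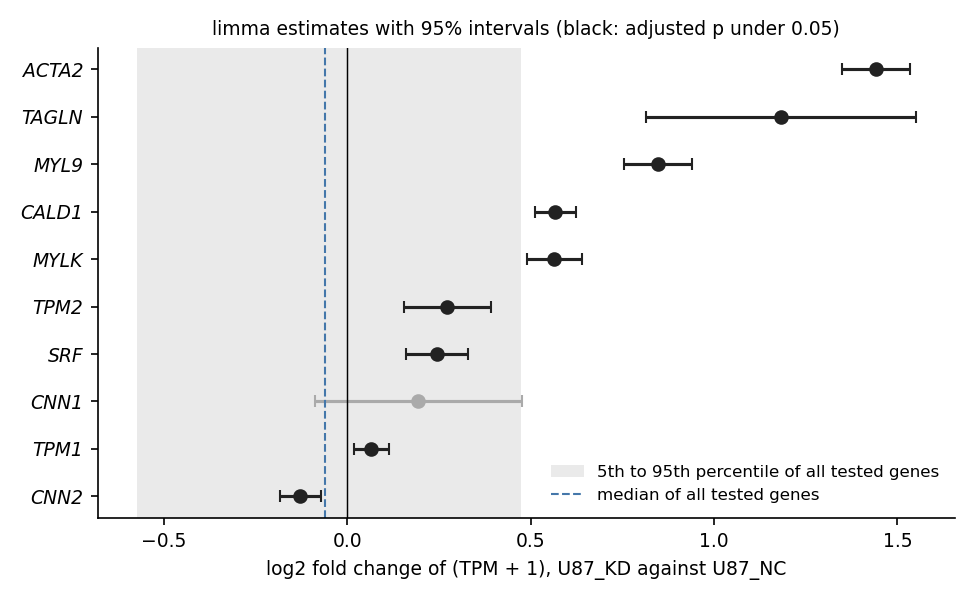
limma log2 fold changes of (TPM + 1), U87_KD against U87_NC, with 95% intervals, for the 10 genes. ACTA2, TAGLN, MYL9, CALD1 and MYLK lie above the 95th percentile of all tested genes (0.47), CNN1 in grey did not pass, and CNN2 lies below 0.

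The genes also changed places in their order of abundance. In U87_NC the means in TPM ran from TPM1 (578) through CNN2 (201), CALD1 (148), MYL9 (68.6), ACTA2 (57.6), TPM2 (46.8), MYLK (34.3), SRF (21.3) and CNN1 (6.06) to TAGLN (1.36). In U87_KD, CALD1 (220.2 TPM) stood above CNN2 (183 TPM), and ACTA2 (158 TPM) stood above MYL9 (124 TPM). No neighbours in either order had overlapping ranges over the 3 libraries. Summed over the 10 genes, the level was 1163 ± 13.2 TPM in U87_NC and 1436 ± 17.0 TPM in U87_KD (SD, n = 3 each). Of the difference of 272 TPM, ACTA2 made up 36.9%, CALD1 26.4% and MYL9 20.4%, whereas SRF made up 1.50% and TAGLN 1.10%. The changes that were large in relative terms were thus not always large in the amount of transcript, TAGLN being the clearest case.

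ACTA2, TAGLN, MYL9, the calponins and the tropomyosins belong to families with members expressed in most cells. The share of a gene within its family is not altered by a factor applied to a whole library, though quantile normalization can alter it. ACTA2 was 0.534%, 0.549% and 0.556% of the summed TPM of ACTA2, ACTB, ACTG1 and ACTG2 in U87_NC and 1.36%, 1.46% and 1.50% in U87_KD. Its share thus stayed small, since ACTB, the main cytoplasmic actin, was at 6921 ± 167 and 6924 ± 185 TPM (SD, n = 3 each). ACTB did not pass the test (log2 fold change 0.0006, adjusted p = 0.989 by limma), though it was lower past the threshold after quantile normalization (-0.10) and relative to GAPDH (-0.51), and ACTG1 rose by a log2 fold change of 0.14 (-0.37 relative to GAPDH). MYL9 was 4.69%, 4.69% and 4.33% of the summed regulatory light chains MYL9, MYL12A and MYL12B in U87_NC and 7.73%, 7.89% and 7.83% in U87_KD. TAGLN was 0.137% ± 0.0312 of the 3 transgelins in U87_NC and 0.380% ± 0.0687 in U87_KD (SD, n = 3 each), next to TAGLN2, which rose from 986 ± 0.579 to 1141 ± 10.9 TPM (SD, n = 3 each). These 3 smooth-muscle-type genes were a larger share of their families in every U87_KD library than in any control. By TPM, 17.4% of all tested genes were higher in every U87_KD library than in any control.

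Within the calponins, CNN2 went from 75.7% ± 0.298 to 73.5% ± 0.525 and CNN1 from 2.28% ± 0.307 to 2.83% ± 0.321 (SD, n = 3 each). The CNN1 shares overlapped between the groups. Within the 4 tropomyosins, TPM1 went from 31.0% ± 0.151 to 30.0% ± 0.574 and TPM2 from 2.50% ± 0.151 to 2.80% ± 0.0079 (SD, n = 3 each). The lower share of TPM1 stood beside a rise of TPM4, a non-muscle form, from 759 ± 7.33 to 895 ± 0.968 TPM (SD, n = 3 each), or by a log2 change of 0.24 (-0.27 relative to GAPDH). In 6 of the 7 shares the groups did not overlap, each with p = 0.10 by an exact two-sided permutation test, and CNN1 had p = 0.20. The smallest value that 3 against 3 can give is 0.10. By TPM, the groups did not overlap for 50.2% of all tested genes, and no such background was computed for shares. The 7 shares are not independent, since CNN1 and CNN2 have the same denominator, as do TPM1 and TPM2.

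**Figure D3:**
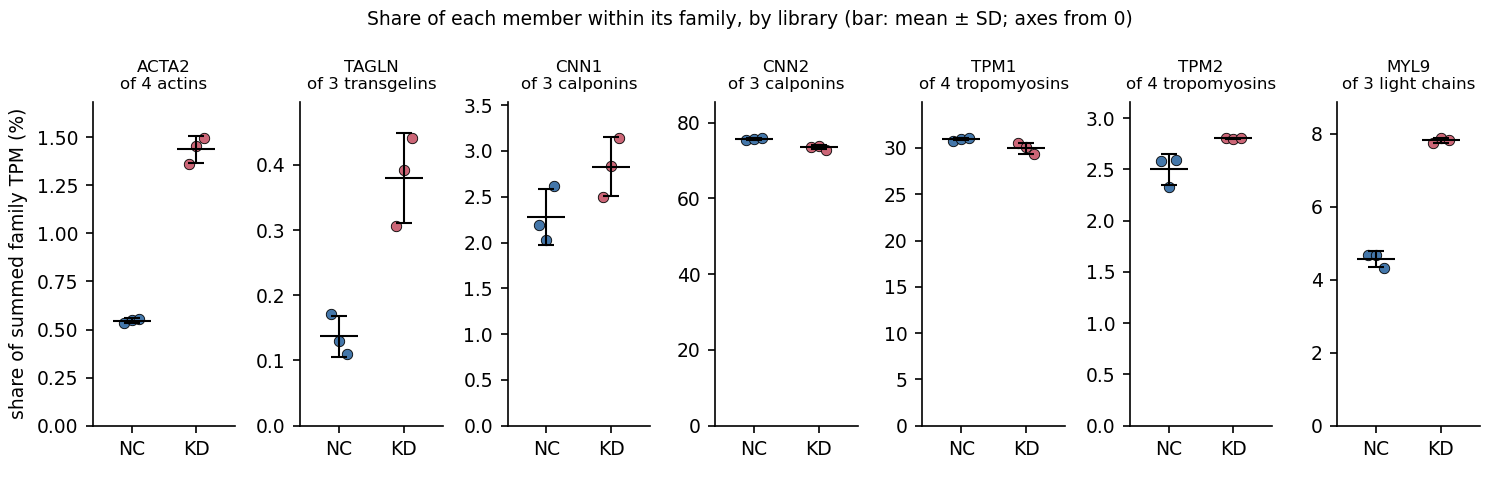
Share of each gene in the summed TPM of its family (%), in the 3 libraries of U87_NC and of U87_KD, with bars for mean and SD and each axis starting at 0. ACTA2, TAGLN, TPM2 and MYL9 were higher in every U87_KD library, CNN2 and TPM1 lower, and the CNN1 points overlap.

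Of 9 partner proteins of SRF, 8 were tested, and 4 of these were lower, 0 were higher and 4 did not pass, beside 24% lower and 12.1% higher among all tested genes, with a median log2 fold change of -0.14 beside -0.06 for all tested genes. Relative to GAPDH all 8 were lower, and median-of-ratios scaling, quantile normalization, the fit without a trend and that with the replicate number as a block each gave 3 lower. CSRP2, a LIM-domain cofactor of SRF in smooth muscle, fell from 20.5 ± 1.54 to 14.9 ± 0.477 TPM, ELK3 from 29.9 ± 1.73 to 23.1 ± 0.812 TPM and ELK1 from 39.8 ± 0.849 to 31.1 ± 0.635 TPM (SD, n = 3 each). Their log2 fold changes were -0.43, -0.36 and -0.34 (adjusted p = 0.00249 by limma, 0.00282 and 0.00053). MYOCD, the myocardin of smooth and cardiac muscle, was listed at 0 to 0.02 TPM and was not tested. MRTFA was at 10.4 ± 0.356 and 11.6 ± 1.85 TPM and MRTFB at 4.91 ± 0.512 and 4.36 ± 0.315 TPM (SD, n = 3 each), with adjusted p of 0.331 and 0.293 by limma. MYOCD, MRTFA and MRTFB were named after their values were seen.

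Other actin cytoskeleton targets of SRF had a smaller median change than the contractile genes, both lists being chosen with earlier results of these data known. Of 20 genes, 16 were tested, with 6 higher, 2 lower and 8 that did not pass, and a median log2 fold change of 0.11. Of all tested genes, 12.1% were higher and 24% lower. Quantile normalization gave 10 higher and 3 lower, and TPM relative to GAPDH gave 0 and 13. SMTN, smoothelin, which is itself a smooth-muscle protein, fell from 100.2 ± 1.12 to 76.4 ± 3.33 TPM, against the direction of ACTA2. ZYX, zyxin of focal adhesions, rose from 250.4 ± 2.68 to 305 ± 9.81 TPM (log2 fold change 0.28, and -0.23 relative to GAPDH), while TLN1, the integrin adaptor talin, fell from 234 ± 10.6 to 192 ± 8.39 TPM (SD, n = 3 for every mean). The limma adjusted p values of SMTN, ZYX and TLN1 were 0.000438, 0.00051 and 0.00393. FHL1, with a log2 change of 0.45, just missed the threshold (adjusted p = 0.053 by limma) and was named after its value was seen.

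The immediate early targets of SRF included 2 higher, 1 lower and 5 that did not pass among the 8 tested of 9. The share past the test in either direction was close to the 36.1% of all tested genes (12.1% higher and 24% lower). FOS, a subunit of the AP-1 factor, rose from 49.2 ± 1.16 to 65.7 ± 3.60 TPM (SD, n = 3 each), or by a log2 change of 0.41 (adjusted p = 0.000857 by limma), which was -0.09 relative to GAPDH. MCL1, a survival protein, rose by a log2 fold change of 0.12 (-0.39 relative to GAPDH), and IER2 fell by 0.15 on the log2 scale. The calls of MCL1 and IER2 were lost in several of the fits that left out 1 library, and without U87_KD 2 the number past the test was 1. TPM relative to GAPDH gave 0 higher and 7 lower, and median-of-ratios and quantile scaling each gave 2 higher and 0 lower.

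Among genes that set the actin monomer pool and the phosphorylation of myosin light chain, 17 of 20 were tested, with 6 higher, 1 lower and 10 that did not pass (median log2 fold change 0.05). The share past the test in either direction was near the 36.1% of all tested genes. Of all tested genes, however, 12.1% were higher and 24% lower. Median-of-ratios scaling gave 11 higher and 1 lower, leaving out mitochondrial transcripts gave 6 and 2, and TPM relative to GAPDH gave 1 and 12. TMSB4X, thymosin beta 4, which sequesters actin monomers, rose from 5140, 5163 and 4937 TPM to 8099, 7844 and 7872 TPM in libraries 1 to 3 of each group. This was the largest change of the list, and the log2 change was 0.64 (SE 0.0215, adjusted p = 8.1e-06 by limma), which was 0.13 relative to GAPDH. PFN1, profilin, which hands monomers to growing filaments, rose from 2239 ± 19.0 to 3059 ± 290.3 TPM (SD, n = 3 each), or by a log2 change of 0.45 (-0.07 relative to GAPDH), with its highest value in U87_KD 3. PPP1CB, the catalytic subunit of myosin phosphatase, rose from 26.0 ± 1.20 to 35.9 ± 2.47 TPM (SD, n = 3 each), or by a log2 change of 0.45 (-0.05 relative to GAPDH).

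**Figure D4:**
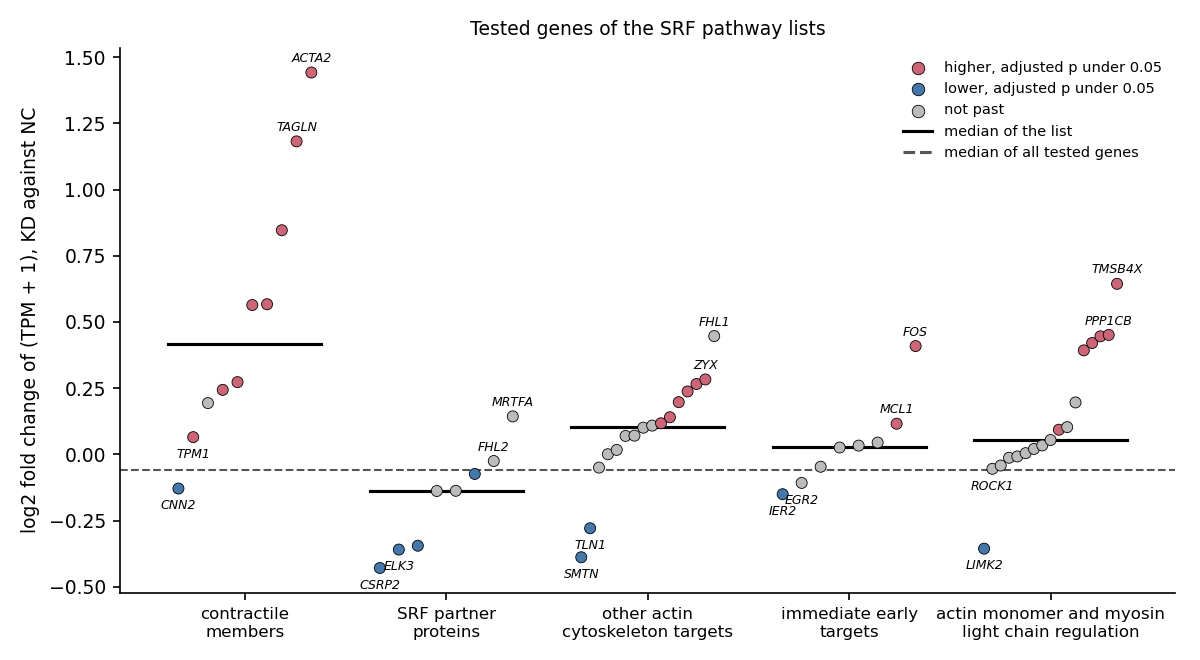
limma log2 fold changes of (TPM + 1), U87_KD against U87_NC, of the tested genes in 5 lists, with a bar for the median of each list and a dashed line for the median of all tested genes (-0.06). The contractile genes reach up to 1.44 with a median of 0.42, whereas the medians of the other lists lie between -0.14 and 0.11. The lists were chosen with earlier results of these data known.

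The estimates of SRF, CNN1, TPM1 and TPM2 changed direction relative to GAPDH, which itself rose, and under no other scaling. Median-of-ratios, quantile and mitochondria-free scaling left the median of all tested genes within 0.1 of its value, but TPM relative to GAPDH moved it to -0.52. Each member but CNN2 (-0.64) lay above that median. Over the 5 scalings the log2 fold change ranged from 0.94 to 1.51 for ACTA2, from 0.34 to 0.92 for MYL9 and from -0.25 to 0.32 for SRF.

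**Figure D5:**
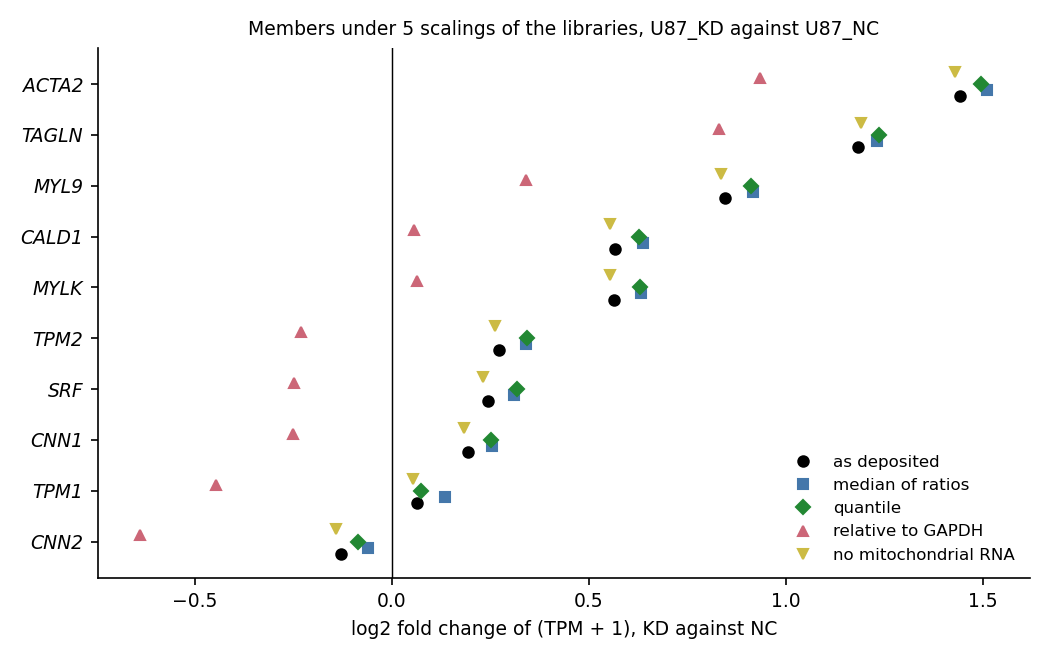
log2 fold changes of the 10 genes, U87_KD against U87_NC, under 5 scalings of the libraries. Relative to GAPDH all 10 values are lower than under the other 4 scalings, and SRF, CNN1, TPM1 and TPM2 lie below 0. CNN2 lies below 0 under every scaling.

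Across the 6 libraries, the genes outside the lists whose log2(TPM + 1) followed that of SRF most closely were S100A6, MTMR12 and PPP1R14B, with Pearson's r of 0.9986, 0.9986 and 0.9983. PPP1R14B, a member of a family of phosphatase inhibitors, was at 255, 245 and 235 TPM in U87_NC and 338, 359.9 and 359 TPM in U87_KD. The 6 points of each correlation fall into the 2 groups, so these values mostly restate the difference between the groups.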

How the data were processed

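Total RNA of U87-MG cells (3 U87_NC and 3 U87_KD libraries) was sequenced by the authors in read pairs. The deposited table holds TPM values, made by the authors and rounded to 2 decimals, for 61731 genes and loci. The submitters' processing notes name fastp, RSEM and GRCh38.p13, without roles or versions, and the annotation is not given in the sources used here. All columns were assigned to samples by their names. TPM is relative within a library, so a change of abundant genes shifts all others.

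Symbols were taken from a table of gene names, coordinates from GENCODE 29 (GRCh38) and promoter windows from RefSeq (GRCh38.p14). Genes averaging 1 TPM or more (13722) were fitted as log2(TPM + 1) in limma 3.58.1 (R 4.3.3, eBayes with trend, group as the only term) with Benjamini-Hochberg adjustment over all of them. Fold changes of low genes are understated on this scale. Shares were compared by exact permutation tests (SciPy 1.17.1). The fit was tested on simulated data with set changes in some genes, and the outcome is not reported here. Alternatives varied the pseudocount, the limit on low values, the scaling, the trend, the replicate number as a term and each library left out. The members and lists were chosen with earlier results of these data known. The rule for named genes took all members, CHRM3, the genes of each family share, the 3 largest changes past the test in each list and the 3 genes most correlated with SRF. FAS and the other genes overlapping members, FHL1, GAPDH, MRTFA, MRTFB, MYOCD and the cell type markers were named beyond it.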

Additional observations from a re-analysis of the deposited data

How the results depend on the processing

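Of the 159 alternative values of the 10 members, 144 kept their direction and side of the threshold, 11 lost the call and 4 reversed. ACTA2, MYL9 and CALD1 passed in the same direction in all 16 fits each, and TAGLN in all 15 that tested it, but relative to GAPDH the log2 fold changes of MYL9 (0.34) and CALD1 (0.06) were far smaller. The 7 family shares kept their direction without each library in turn and as a log difference between the gene and its relatives, and were not computed under the other alternatives. TPM keeps no depth, so counting error at the low levels of TAGLN and CNN1 could not be assessed.

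The number of members past the test and the fold limit was 2. It was 1 with a limit of 5 TPM, which removes TAGLN, and 0 relative to GAPDH. GAPDH rose itself, and that scaling lowered the median of all tested genes from -0.06 to -0.52. It gave 7 immediate early targets past the test in place of 3, 13 other actin cytoskeleton targets in place of 8, 13 genes of actin monomer and myosin light chain regulation in place of 7, and 8 partner proteins in place of 4. It reversed the median of the members (-0.086) and the log2 fold changes of SRF (-0.25), CNN1 (-0.25), TPM1 (-0.45), TPM2 (-0.23), ACTB (-0.51), ACTG1 (-0.37), CNN3 (-0.49), FOS (-0.095), MCL1 (-0.39), MYL12A (-0.42), PFN1 (-0.067), PPP1CB (-0.045), TAGLN2 (-0.30), TPM4 (-0.27) and ZYX (-0.23). Without the trend, 1 immediate early target passed. Median-of-ratios scaling gave 12 genes of actin monomer and myosin light chain regulation, and reversed MYL12B (0.028) and TPM3 (0.0040). Quantile normalization gave 13 other actin cytoskeleton targets and reversed ACTB (-0.10), as did leaving out mitochondrial transcripts (-0.012). The cause of these was not tested.

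When 1 library at a time was left out, 8 to 9 members passed the test, with 2 past the fold limit in each, as did 1 to 2 immediate early targets, the lowest without U87_KD 2. ACTB ranged from -0.017 to 0.021, ACTG2 from -0.21 to 0.077 and TAGLN3 from -0.27 to 0.060, none past the threshold. With the replicate number as a block, 8 members passed (7 higher, 1 lower), since TPM1 was lost (adjusted p = 0.118 by limma), and the calls of the 22 other named genes did not change. Same-numbered libraries did not deviate together (correlations -0.02, 0.034 and 0.033), so the numbers were not taken as pairs.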
